A study of Homo sapiens with 6 samples.

Results

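MYC, its long noncoding neighbour PVT1, the microRNA gene MIR1204 that lies inside the PVT1 locus, and 3 proteins of the MYC network (MAX, MXD4 and MNT) were examined across 6 RNA-seq libraries of HEK293T cells. These 6 symbols were taken by name out of the 23204 symbols in the deposited files, and all 11 of their rows, out of 39618, were kept. MAX has 6 rows, 1 for each RefSeq transcript, and every other symbol has 1 row. PVT1 and MIR1204 were chosen by their measured differences between the DDX3X constructs and GFP in these same libraries, which were already known to be high, so their differences from GFP are given as a description and support nothing further.

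MYC is a transcription factor that binds E-box DNA as a dimer with MAX and drives genes of growth, ribosome production and metabolism. MXD4 and MNT also dimerise with MAX, occupy the same kind of sites and repress, so the balance of MYC against the MXD proteins and MNT is a classical way of describing the output of the network. PVT1 lies downstream of MYC, is often co-amplified with it in tumours, medulloblastoma among them, and together with MIR1204 is known as a p53-responsive transcript.

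HEK293T is an established line of human embryonic kidney origin that carries the SV40 large T antigen, a protein that binds p53. In 4 libraries the cells were transfected with 5 µg of plasmid for 32 h and sorted by flow cytometry for GFP: GFP alone, GFP fused to wild-type DDX3X, and GFP fused to either of the medulloblastoma (MB)-associated mutants T275M and G302V. DDX3X is a DEAD-box RNA helicase. In 2 libraries, without sorting, the cells received control or DDX3X siRNA for 48 h. All 6 cultures keep their own DDX3X gene, the plasmids are transient, and each group is 1 library, so no difference between groups has a replicate check, no test was possible, and every interval below covers counting error only.

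The libraries held between 43720000 and 180870000 reads by the depth recovered from the deposited values, and the DDX3X siRNA library was the deepest. DDX3X stood at 119 RPKM (reads divided by row length and by library total) with GFP, at 2894, 3279 and 1906 with wild-type DDX3X, T275M and G302V, and at 107 and 31.3 with control and DDX3X siRNA, which matches the 6 labels. The labels call the cells neuronal. Of 10 neuronal markers 5 to 6 reached 1 RPKM, with NEFM at 514 to 683 RPKM and ELAVL4 at 0 reads in all 6 libraries, while 2 to 3 of 10 kidney and epithelial markers did so, with UMOD at 0 in all 6. Of the neuronal markers SNAP25, a synaptic protein, stood at 0.115 RPKM with GFP (13 reads). It stood at 1.38, 1.22 and 0.290 with wild-type DDX3X, T275M and G302V (178, 119 and 26 reads). On log2(RPKM + 1) it was higher than GFP with wild-type DDX3X (1.09, past 2-fold) and T275M (0.99). With G302V it was too low to be compared, under 1 RPKM in both libraries. Of 6 neuronal markers compared with wild-type DDX3X and with T275M, 4 lay above GFP each time. The 2 below were NEFM (−0.41 and −0.37) and NEFL (−0.36 and −0.18). None of the 8 blood and endothelial markers reached 1 RPKM in any library. The summed level of the neuronal markers was 641 to 837 RPKM, and that of the kidney and epithelial markers 43.7 to 61.3 RPKM. NEFM and NEFL held most of the neuronal sum, at 683 and 140 of 837 RPKM with GFP. No other neuronal marker exceeded 9.28 RPKM in any library. The part of any of these markers in the results below was not tested.

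PVT1 was the long transcript of the locus whose level differed most between the libraries. It stood at 4.30 RPKM with GFP (448 reads), 9.22 with wild-type DDX3X (1100 reads), 12.5 with T275M (1130 reads) and 6.87 with G302V (571 reads). In the cells without plasmid it stood at 3.70 RPKM with control siRNA (475 reads) and 4.21 with DDX3X siRNA (1448 reads). All 3 construct libraries were thus above the 3 libraries without a construct. By exact 95% intervals of the RPKM values, the highest upper limit without a construct was 4.71 and the lowest lower limit with a construct 6.32. PVT1 was chosen by its differences from GFP and the intervals cover counting error only, so nothing is read from this separation. In order from the highest level, T275M, wild-type DDX3X, G302V and GFP were each separated from the next by more than counting error. GFP and DDX3X siRNA were not, with a difference of 0.02 on the log2(RPKM + 1) scale (95% interval −0.10 to 0.15).

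On the log2(RPKM + 1) scale, which understates the change of low genes, PVT1 was 0.95 higher with wild-type DDX3X than with GFP (95% interval 0.81 to 1.08), or 2.15 times by RPKM. It was 1.35 higher with T275M (1.21 to 1.48), or 2.91 times, and 0.57 higher with G302V (0.42 to 0.72), or 1.60 times. With DDX3X siRNA it was 0.15 above control siRNA (0.03 to 0.27), or 1.14 times. The 3 differences from GFP share that library, so they are not independent of each other. Between constructs, PVT1 was 0.40 higher with T275M than with wild-type DDX3X (0.29 to 0.51), lower by 0.38 with G302V than with wild-type DDX3X (log2 difference −0.38, interval −0.51 to −0.25), and lower again against T275M (−0.78, interval −0.91 to −0.65). These are bulk RNA samples, so a larger share of cells with PVT1 and more PVT1 RNA per cell cannot be told apart.

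**Figure D1:**
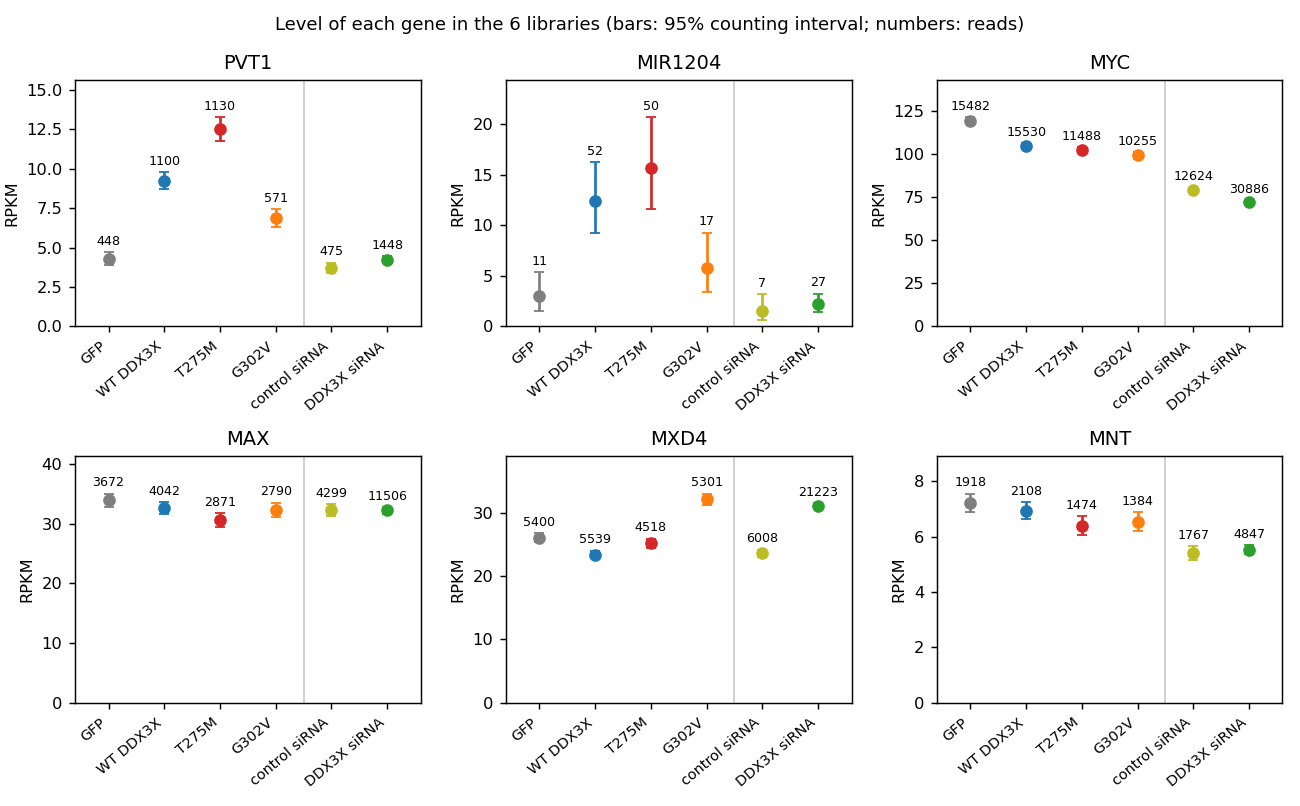
RPKM (vertical axis, linear from 0) of the 6 genes in the 6 libraries, 1 point per library with its exact 95% counting interval and its reads printed above; the grey line divides the plasmid libraries from the siRNA libraries. PVT1 and MIR1204 stand highest with T275M, at 12.5 and 15.7 RPKM, while MYC stands highest with GFP, at 119 RPKM, and MAX stays between 30.6 and 33.9 RPKM.

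MIR1204 is annotated as a 67-base microRNA hairpin, so its row rests on few reads. It stood at 2.99 RPKM with GFP (11 reads), 12.4 with wild-type DDX3X (52 reads), 15.7 with T275M (50 reads) and 5.80 with G302V (17 reads), and at 1.55 and 2.23 RPKM with control and DDX3X siRNA (7 and 27 reads). The libraries with wild-type DDX3X and T275M were the highest, and the interval of each (9.24 to 16.2 and 11.6 to 20.7 RPKM) lay above those of GFP (1.49 to 5.36) and of both siRNA libraries. The G302V interval (3.38 to 9.29 RPKM) overlapped that of GFP. MIR1204 was chosen by its differences from GFP as well, so nothing is read from these intervals. Libraries of this kind are made from polyadenylated RNA and do not aim at mature microRNAs, so the row measures reads that lie over the hairpin in longer RNA and not the microRNA itself.

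The log2(RPKM + 1) difference of MIR1204 from GFP was 1.74 with wild-type DDX3X (0.96 to 2.52) and 2.06 with T275M (1.27 to 2.85). With G302V it was 0.77, with an interval that includes 0 (−0.18 to 1.69). By RPKM these were 4.13, 5.24 and 1.94 times the GFP level. With DDX3X siRNA the difference from control siRNA was 0.34 (−0.49 to 1.11), on 27 and 7 reads. T275M and wild-type DDX3X could not be separated for MIR1204 at this depth (difference 0.32, interval −0.23 to 0.87), whereas G302V was below wild-type DDX3X (−0.97, interval −1.72 to −0.25) and below T275M (−1.29, interval −2.04 to −0.56).

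All 6 members passed the filter on low values in each comparison (at least 1 RPKM and at least 10 reads in 1 of both libraries), MIR1204 through the library in which it was higher where the other was under 10 reads. A gene was called where its log2(RPKM + 1) difference was at least 1 either way, that is 2-fold. With T275M 2 of 6 members were called, PVT1 and MIR1204, both higher than GFP, against 0.372% of all 12912 genes tested (0.294% for higher alone). With wild-type DDX3X 1 of 6 was called, MIR1204, higher than GFP, against 0.248% of 12915 genes (0.232% for higher alone), and PVT1 at 0.95 stood just under the threshold. With G302V 0 of 6 members were called, against 0.305% of 12775 genes. The members were chosen with these differences known, so nothing is read from these counts. Ranked from the highest difference, PVT1 was number 39 with wild-type DDX3X, number 12 with T275M and number 148 with G302V, and MIR1204 was number 4, number 4 and number 29. MIR1204 belongs to the rows under 200 bases, of which 421, 409 and 404 were tested with wild-type DDX3X, T275M and G302V. These short rows were called more often than all genes, with 7 (1.66%), 16 (3.91%) and 28 (6.93%) called, of which 5, 7 and 3 were higher than GFP, and their median differences were −0.06, −0.14 and −0.19. The part of row length in the MIR1204 differences was not tested.

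**Figure D2:**
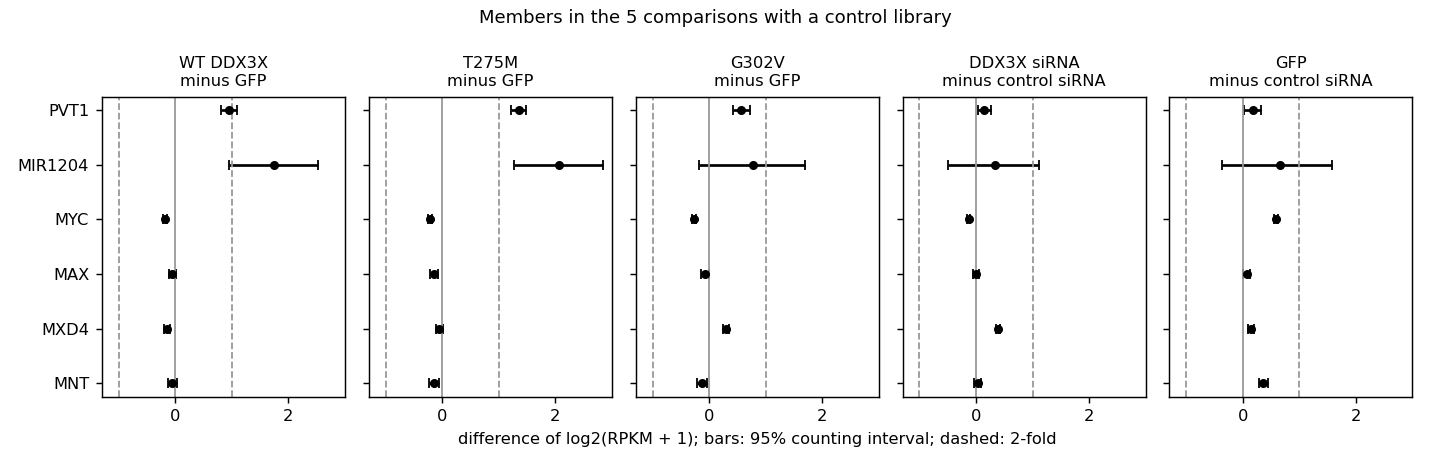
Difference of log2(RPKM + 1) (horizontal axis) for each member in the 5 comparisons with a control library, with 95% counting intervals; the solid line marks no difference and the dashed lines 2-fold. PVT1 and MIR1204 lie to the right of 0 in the 3 construct panels, reaching 1.35 and 2.06 with T275M, while the MYC points lie at −0.19 to −0.26 there and at 0.59 in the panel of GFP against control siRNA.

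The MIR1204 row lies within the PVT1 locus, and the reads of both rows were therefore set against each other within each library. MIR1204 made up 2.40% of the reads of both rows with GFP (11 of 459, exact Clopper-Pearson 95% interval 1.20% to 4.25%), 4.51% with wild-type DDX3X (52 of 1152, 3.39% to 5.88%), 4.24% with T275M (50 of 1180, 3.16% to 5.55%) and 2.89% with G302V (17 of 588, 1.69% to 4.59%). With control siRNA the share was 1.45% (7 of 482, 0.586% to 2.97%) and with DDX3X siRNA 1.83% (27 of 1475, 1.21% to 2.65%). The shares with wild-type DDX3X and T275M were the highest and their intervals lay wholly above those of both siRNA libraries, while they overlapped the interval of GFP.

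Per base, the RPKM of MIR1204 was 0.697 times that of PVT1 with GFP (95% interval 0.345 to 1.26), 1.34 with wild-type DDX3X (0.995 to 1.77), 1.26 with T275M (0.926 to 1.67) and 0.845 with G302V (0.489 to 1.36). It was 0.418 with control siRNA (0.167 to 0.868) and 0.529 with DDX3X siRNA (0.347 to 0.773). By this measure the hairpin was less densely covered than the PVT1 row in both siRNA libraries, while in the 4 plasmid libraries equal density lay within the intervals. Short rows in general also differed between plasmid and siRNA cells. Of 420 rows under 200 bases, 54 (12.9%) were called between GFP and control siRNA, 49 of them higher with GFP, against 0.503% of all genes. The part of row length in the shares and densities of MIR1204 was not tested. How reads that only partly overlap a row were counted is not given in the sources used here. Densities of rows of such unlike length may therefore not compare like for like. If the hairpin had been covered at the density of the PVT1 row, it would have held 15.8 reads with GFP, where 11 were counted, 38.8 with wild-type DDX3X, where 52 were counted, and 51.0 with DDX3X siRNA, where 27 were counted.

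**Figure D3:**
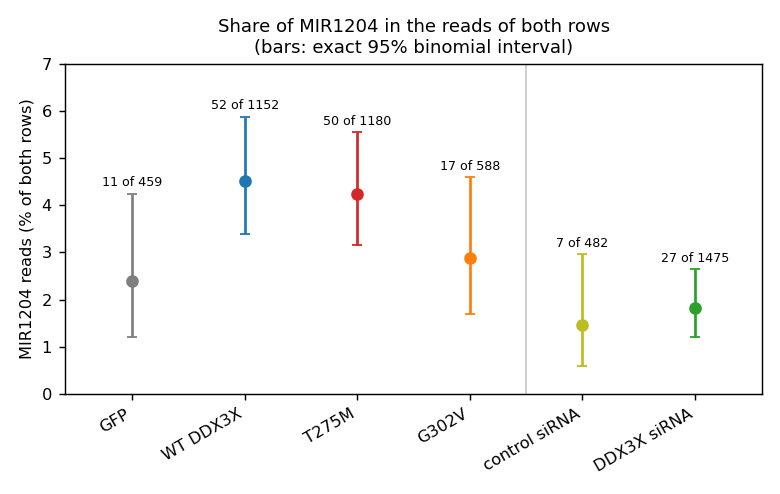
MIR1204 reads as a percent of the reads of the MIR1204 and PVT1 rows together (vertical axis, from 0), 1 point per library with its exact 95% binomial interval and the reads printed above. The shares with wild-type DDX3X (4.51%) and T275M (4.24%) are the highest, and those with control siRNA (1.45%) and DDX3X siRNA (1.83%) the lowest.

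The positions show what the rows can hold. On GRCh37, the build of the files, MYC spans chr8:128747680-128755197 on the plus strand, PVT1 spans chr8:128806772-129199347 on the same strand, 51575 bases further on, and MIR1204 is at chr8:128808208-128808274. The PVT1 row describes a spliced RNA of 1901 bases, and MIR1204 lies 1228 bases past the end of the PVT1 exon listed in the files. In the GENCODE v44 annotation 53 of 190 PVT1 transcripts have an exon that overlaps MIR1204, 28 of them hold the whole hairpin in an exon, and 37 of the 53 start downstream of the exon listed in the PVT1 row. A read over MIR1204 can therefore come from exons of some PVT1 transcripts or from unspliced PVT1 RNA, and these sources cannot be told apart in the files.

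Only 1 other gene around the locus had at least 10 reads in a library, and with the constructs it differed less from GFP than PVT1 did. Within 2 Mb of MYC the files hold 10 further symbols, of which 4 had 0 reads in all 6 libraries and 5 had at most 7 reads in any library. The other microRNA genes of the PVT1 locus, MIR1205 to MIR1208, had at most 1 read each, so no difference was detectable for them at this depth. FAM84B, a coding gene on the other side of MYC that newer annotation calls LRATD2, was the exception in level. It stood at 53.6 RPKM with GFP, 49.8 with wild-type DDX3X, 48.5 with T275M and 44.1 with G302V, and at 41.3 and 40.2 with control and DDX3X siRNA. FAM84B was thus highest with GFP, where MYC was highest and PVT1 was not, with log2(RPKM + 1) differences from GFP of −0.10, −0.14 and −0.28. Between the controls FAM84B was 0.37 higher with GFP than with control siRNA (0.34 to 0.40), where PVT1 was 0.17 higher (0.02 to 0.32).

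MYC did not follow PVT1. It stood at 119 RPKM with GFP (15482 reads), 105 with wild-type DDX3X (15530 reads), 102 with T275M (11488 reads) and 99.1 with G302V (10255 reads), and at 79.0 with control siRNA (12624 reads) and 72.2 with DDX3X siRNA (30886 reads). The 4 plasmid libraries were all above both siRNA libraries, and within the plasmid libraries the 3 constructs were all below GFP. Each step in the order GFP, wild-type DDX3X, T275M, G302V, control siRNA, DDX3X siRNA was larger than counting error on the deposited scale. The steps from wild-type DDX3X to T275M (0.03, interval 0.00 to 0.07) and from T275M to G302V (0.04, interval 0.00 to 0.08) were small, and under median-ratio scaling neither was separated from 0, so the order of the 3 constructs is not settled for MYC.

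Against GFP, the log2(RPKM + 1) difference of MYC was −0.19 with wild-type DDX3X (−0.22 to −0.16), −0.22 with T275M (−0.26 to −0.19) and −0.26 with G302V (−0.30 to −0.23), which is 0.877, 0.856 and 0.831 times the GFP level. Over all genes tested the median differences were 0.05, 0.07 and 0.03, and 6.65%, 8.29% and 5.86% of them lay below MYC. With DDX3X siRNA MYC was at 0.913 times its control siRNA level (−0.13, interval −0.16 to −0.10), and 30.7% of genes lay below it. MYC was thus lower both where DDX3X was raised and where it was lowered, by less than 2-fold each time. With DDX3X siRNA 0 of 6 members were called, against 0.11% of 12694 genes.

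The largest difference of MYC was between both control libraries. GFP was 0.59 above control siRNA (0.55 to 0.62), or 1.51 times, number 155 from the highest of 12730 genes, while the median of all genes was 0.01. MNT was also higher with GFP than with control siRNA (0.36, interval 0.28 to 0.44), MXD4 by 0.14 (0.09 to 0.19), PVT1 by 0.17 (0.02 to 0.32) and MAX by 0.07 (0.01 to 0.13). MIR1204 was 0.65 higher, number 128 from the highest, on 11 and 7 reads and with an interval that includes 0 (−0.37 to 1.58). Between these controls 0 of 6 members were called, against 0.503% of all genes. These cells differ in plasmid against siRNA, in 32 h against 48 h, and in sorting, and these cannot be told apart. MYC also overlaps the antisense gene CASC11 over 3554 bases, the files hold 0 rows for CASC11, and the library kit does not keep the strand of the RNA, so reads of both genes cannot be told apart in that stretch.

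MYC outnumbered PVT1 per base in every library, but by a changing factor. The ratio of their RPKM values was 27.8 with GFP and 11.3, 8.17 and 14.4 with wild-type DDX3X, T275M and G302V, and it was 21.4 and 17.1 with control and DDX3X siRNA. The lower ratios with the constructs came mostly from PVT1, whose RPKM varied 3.38-fold over the libraries, whereas that of MYC varied 1.65-fold.

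The order of PVT1 and MIR1204 over the 4 plasmid libraries, GFP, G302V, wild-type DDX3X and T275M from low to high, was also the order of DDX3X itself. The constructs differ in identity and in level at the same time, so these cannot be told apart. Of 13049 genes tested, 1410 (10.8%) had that same order and 583 (4.47%) the reverse order. MYC, MAX, MXD4 and MNT did not have it.

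**Figure D4:**
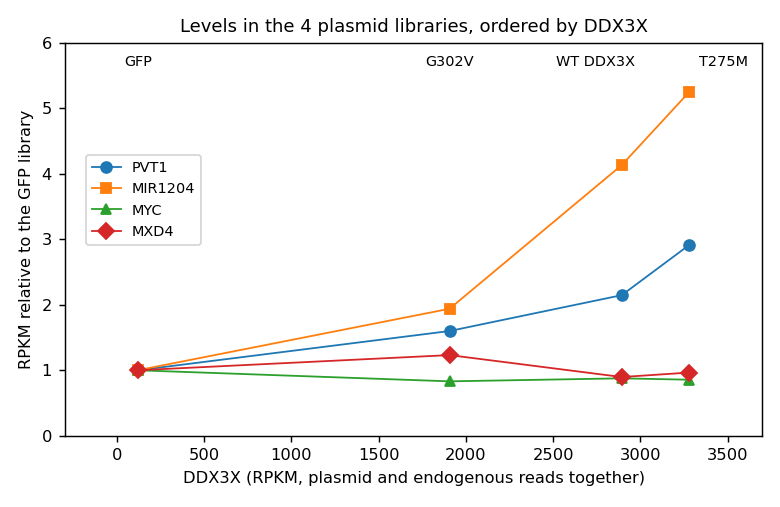
Level of PVT1, MIR1204, MYC and MXD4 relative to the GFP library (vertical axis, RPKM ratio) against the DDX3X level of the same library (horizontal axis, RPKM) in the 4 plasmid libraries. PVT1 and MIR1204 lie higher at each step of DDX3X, up to 2.91 and 5.24 times the GFP level with T275M, while MYC lies at 0.831 to 0.877 times in the 3 construct libraries.

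MAX, the obligate partner of MYC, MXD4 and MNT, was the steadiest member. Its most abundant row stood at 33.9 RPKM with GFP, 32.6 with wild-type DDX3X, 30.6 with T275M and 32.3 with G302V, and at 32.2 with each siRNA. Its intervals included no difference for wild-type DDX3X against GFP (−0.05, interval −0.12 to 0.01), for G302V against GFP (−0.07, interval −0.14 to 0.00) and for DDX3X siRNA against control siRNA (0.00, interval −0.05 to 0.05, with a sign that turned positive under median-ratio scaling and after thinning of the deeper library). T275M was below GFP by more than counting error (−0.14, interval −0.21 to −0.08). Under median-ratio scaling the intervals of wild-type DDX3X (−0.11, −0.18 to −0.05) and of G302V (−0.09, −0.16 to −0.02) against GFP left out 0 as well.

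The 6 MAX rows do not measure 6 independent things. The 3 long rows, of 1975, 2002 and 2103 bases, held nearly the same reads, at 100% to 101% of those of the most abundant row in every library. The rows of 897, 575 and 452 bases held 15.1% to 17.2%, 27.2% to 29.3% and 14.1% to 16.1% of that number. The shares of the shorter rows thus varied little over the 6 libraries, and how reads shared by several MAX transcripts were assigned is not given in the sources used here.

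MXD4, a MAX partner that represses and is linked to differentiation and cell cycle exit, had another pattern again. It stood at 26.1 RPKM with GFP (5400 reads), 23.4 with wild-type DDX3X (5539 reads), 25.2 with T275M (4518 reads) and 32.1 with G302V (5301 reads), and at 23.6 with control siRNA (6008 reads) and 31.1 with DDX3X siRNA (21223 reads). The G302V and DDX3X siRNA libraries were the highest, and the other 4 lay between 23.4 and 26.1 RPKM. MXD4 was 0.38 higher with DDX3X siRNA than with control siRNA (0.35 to 0.42), or 1.32 times, and number 606 of 12694 genes from the highest. G302V was 0.29 above GFP (0.24 to 0.34), 0.44 above wild-type DDX3X (0.39 to 0.49) and 0.34 above T275M (0.28 to 0.40). Wild-type DDX3X was below GFP (−0.15, interval −0.20 to −0.10), and T275M was not separated from GFP on the deposited scale (−0.05, interval −0.10 to 0.01) but lay below it under median-ratio scaling (−0.11, interval −0.16 to −0.05).

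MNT, which represses MYC targets in growing and in resting cells, was the lowest of the coding members. It stood at 7.22 RPKM with GFP, 6.94 with wild-type DDX3X, 6.40 with T275M and 6.54 with G302V, and at 5.40 and 5.53 with control and DDX3X siRNA, on 1384 to 4847 reads. As for MYC, the plasmid libraries were above the siRNA libraries. T275M and G302V were below GFP (−0.15, interval −0.24 to −0.07, and −0.13, interval −0.21 to −0.04), and wild-type DDX3X was not separated from GFP (−0.05, interval −0.13 to 0.03), nor were both siRNA libraries from each other (0.03, interval −0.04 to 0.10, with a sign that turned negative after thinning). Both of these intervals left out 0 under median-ratio scaling (−0.10, −0.18 to −0.02, and 0.07, 0.01 to 0.14).

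The balance of MYC against these repressors, taken as the RPKM of MYC over the summed RPKM of MXD4 and MNT, was 3.58 with GFP, 3.45 with wild-type DDX3X, 3.23 with T275M and 2.56 with G302V. It was 2.73 with control siRNA and 1.97 with DDX3X siRNA. Within the plasmid and within the siRNA libraries the value was lowest where MXD4 was highest and the RPKM of MYC lowest. The ratio itself favours this, since MYC is its numerator and MXD4 was the larger part of its denominator in every library.

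The rest of the MAX network and of the related MLX network was measured with 10 further symbols, of which 9 had a row and 8 passed the filter. None of the 8 was called in any of the 4 comparisons of DDX3X constructs or siRNA with their controls, where at most 0.372% of all genes were, and their median differences were 0.12, 0.12 and 0.20 with wild-type DDX3X, T275M and G302V and 0.08 with DDX3X siRNA. MXD1, another MAX-binding repressor, came nearest. It stood at 1.72 RPKM with GFP, 3.50 with wild-type DDX3X, 3.16 with T275M and 2.70 with G302V, or 0.73, 0.61 and 0.44 higher on the log2(RPKM + 1) scale, and at 1.73 and 2.02 with both siRNAs. MXD3, a repressor associated with proliferating cells, was the most abundant of the list, at 75.8 RPKM with GFP, and lay lower with the constructs (−0.20, −0.29 and −0.24).

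The remaining members of that list gave values of both signs. MXI1, also a MAX-binding repressor, lay 0.04 (−0.04 to 0.11), 0.27 and 0.32 from GFP with wild-type DDX3X, T275M and G302V, and MGA, a MAX partner with a T-box domain, was 0.12, 0.13 and 0.33 above it. MGA also stood apart between the controls, at 2.95 RPKM with GFP and 5.35 with control siRNA (−0.69). MLX and its glucose-sensing partners MLXIP and MLXIPL lay 0.24, −0.06 and 0.13 from GFP with wild-type DDX3X and 0.08, 0.29 and −0.27 with G302V. With DDX3X siRNA MLXIP was 0.38 above its control and MLXIPL was below (−0.19). MYCL1, a MYC paralogue, stood at 2.18 to 2.65 RPKM, and MYCN, the paralogue amplified in some medulloblastomas, did not exceed 0.114 RPKM.

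Proteins that work with MYC or control its turnover gave 17 genes with values of 18 listed. None was called with any construct or with DDX3X siRNA, where at most 0.372% of all genes were, so nothing is read from that count. Of the 17, 5, 8 and 8 lay above GFP with wild-type DDX3X, T275M and G302V, against 62.1%, 62.2% and 54.8% of all genes. FBXW7, the F-box protein that sends MYC to degradation, differed most from GFP with wild-type DDX3X (0.62) and T275M (0.85), but not with G302V (0.30). It stood at 4.86 RPKM with GFP, 8.02 with wild-type DDX3X, 9.57 with T275M and 6.21 with G302V, and at 6.19 and 6.59 with control and DDX3X siRNA, so GFP was the lowest of the 6 libraries. KIAA1524, an inhibitor of the phosphatase that destabilises MYC, was 0.28, 0.29 and 0.16 above GFP with wild-type DDX3X, T275M and G302V. KAT2A, an acetyltransferase recruited by MYC, was lower than GFP with all 3 constructs (−0.29, −0.29 and −0.33). So was RUVBL2, an ATPase of MYC-bound complexes (−0.10, −0.30 and −0.35). SKP2, a ubiquitin ligase subunit, was lower with all 3 constructs as well (−0.25, −0.23 and −0.15).

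The highest and lowest genes of this list with G302V and with DDX3X siRNA were partly others. TRRAP, the scaffold of MYC-recruited acetyltransferases, was 0.44 above GFP with G302V and 0.42 above control siRNA with DDX3X siRNA. HUWE1, a ubiquitin ligase, was 0.41 above GFP with G302V. EP400, a chromatin remodeller, was 0.27 above control siRNA with DDX3X siRNA, where KAT5, an acetyltransferase, was lower (−0.39) and so was RUVBL2 (−0.27).

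Of 20 genes known as MYC targets, none was called in these 4 comparisons, where 0.11% to 0.372% of all genes were, so nothing is read from that count. With wild-type DDX3X, T275M and G302V 19, 16 and 16 of them lay below GFP, with medians of −0.13, −0.24 and −0.24, where the medians of all genes were 0.05, 0.07 and 0.03. The GFP library that these 3 comparisons share was itself high for the list, with 15 of 20 genes above control siRNA, a median of 0.14 and TERT highest at 0.57, as it was for MYC. With DDX3X siRNA 11 of 20 lay below control siRNA, with a median of −0.06 against −0.02 for all genes. NOP16, a nucleolar protein, was among the lowest with each construct (−0.29, −0.45 and −0.34), together with the telomerase subunit TERT with wild-type DDX3X (−0.25), the nucleolar MYBBP1A with T275M (−0.34) and the ribosome assembly factor RRS1 with G302V (−0.34). At the other end were the D-type cyclin CCND2 (0.13 and 0.11 with wild-type DDX3X and T275M), the hexokinase HK2 (0.24 and 0.41 with T275M and G302V) and the pyrimidine synthesis enzyme CAD (−0.01 with wild-type DDX3X and 0.19 with G302V). With DDX3X siRNA PA2G4 and NPM1, both of ribosome production, were lowest (−0.31 and −0.22) and TERT and HK2 highest (0.29 and 0.25).

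Since PVT1 is known as p53-responsive, 20 p53 target genes were set beside it. Both PVT1 and this list were chosen with earlier results of these data known. Nothing is therefore read from the counts below, and a link between PVT1 and p53 was not tested. The 3 construct comparisons share the GFP library, so they are not independent of each other. With wild-type DDX3X, T275M and G302V 20, 20 and 19 of the p53 targets lay above GFP, where 62.1%, 62.2% and 54.8% of all genes did. Their medians were 0.35, 0.56 and 0.41, against 0.05, 0.07 and 0.03 for all genes. Of the list 2, 7 and 2 were called higher, where 0.232%, 0.294% and 0.0861% of all genes were. CDKN1A, the p21 inhibitor of cyclin-dependent kinases, stood at 7.38 RPKM with GFP and at 16.3, 22.7 and 21.1 with the 3 constructs (2.20, 3.07 and 2.86 times). GADD45A, a DNA damage response gene, stood at 13.1 and at 32.1, 36.4 and 23.5 RPKM (2.45, 2.78 and 1.80 times), and TP53INP1, a stress-induced gene of the p53 pathway, was highest with G302V, at 5.50 RPKM against 1.77 with GFP (3.11 times). The lowest differences were those of TNFRSF10B and BAX with wild-type DDX3X (0.07 and 0.07) and of SESN2 and TP53I3 with T275M (0.14 and 0.14) and G302V (0.03 and 0.00). With DDX3X siRNA none was called of 19 that passed the filter, where 0.11% of all genes were, and the median was 0.09 against −0.02 for all genes. There SESN2 and TP53I3 (−0.35 and −0.20) stood at the lower end and BTG2 and ZMAT3 (0.36 and 0.36) at the upper end.

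**Figure D5:**
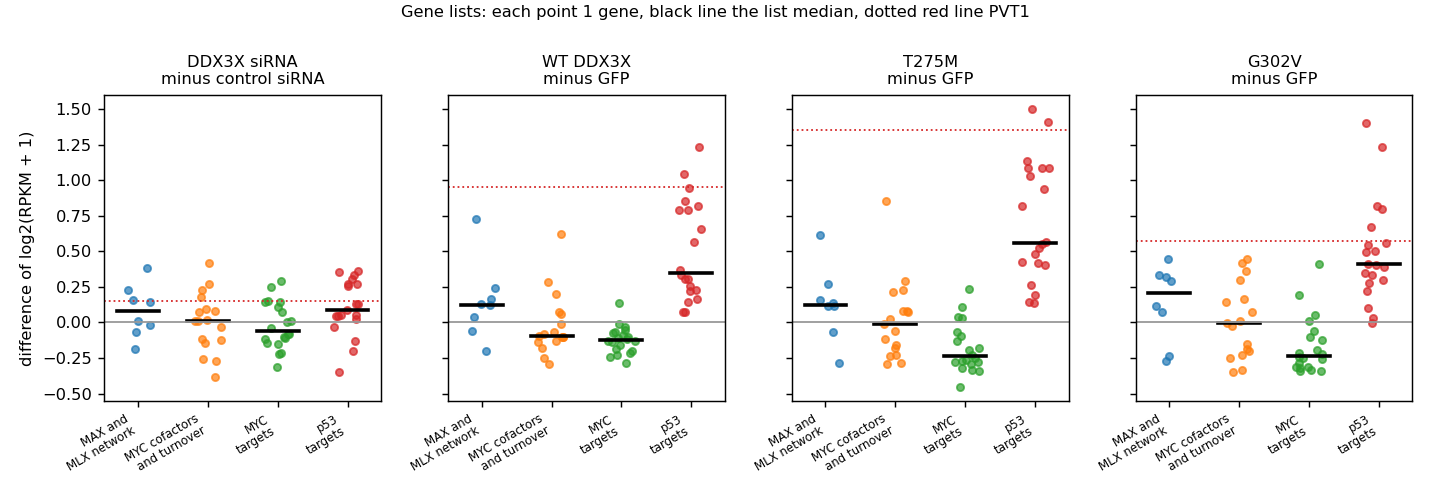
Difference of log2(RPKM + 1) (vertical axis) of each gene in 4 lists, in the comparison of DDX3X siRNA with its control and of the 3 constructs with GFP; each point is 1 gene, black bars are list medians and the dotted red line is PVT1. The MYC targets lie mostly below 0 with the constructs (medians −0.13, −0.24 and −0.24) and the p53 targets above 0 (medians 0.35, 0.56 and 0.41), with PVT1 at 0.95, 1.35 and 0.57.

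The genes whose levels over the 6 libraries ran nearest to PVT1 were found by root mean square distance of centred log2(RPKM + 1) values, among 13007 genes with at least 1 RPKM in a library and at least 10 reads in every library. The nearest 5 were SH2D3C, an adaptor protein (distance 0.108), PVRL4, a nectin adhesion protein (0.145), BRSK1, a kinase known from neurons (0.150), DDB2, a subunit of a complex that recognises damaged DNA (0.155), and SPATA18, a mitochondrial quality control gene (0.158). Of these 5, DDB2 and SPATA18 are also in the p53 target list. DDB2 stood at 14.0, 25.0, 27.8 and 18.9 RPKM with GFP, wild-type DDX3X, T275M and G302V and at 13.1 and 12.8 with both siRNAs. All 5 of these genes had the order of PVT1 over the plasmid libraries, which the choice by nearness favours. The distance favours genes with the same size of change, and by Pearson correlation of the same 6 values the nearest 5 were AADAT, CHIC1, DCAF5, CDK8 and AGAP4. None of those named by correlation is in the p53 target list.

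For MYC the nearest 3 by the same distance were CA2, a carbonic anhydrase (0.0385), LENG8 (0.0490) and CHTF18, a clamp loader subunit of DNA replication (0.0503). CA2 stood at 204, 192, 185 and 173 RPKM with GFP, wild-type DDX3X, T275M and G302V and at 144 and 132 with control and DDX3X siRNA. That is the order of MYC in all 6 libraries, which the choice by nearness favours. By Pearson correlation the nearest were GGA1, HGS and KGFLP1.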

How the data were processed

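RNA of 6 HEK293T cultures was sequenced on an Illumina HiSeq from TruSeq RNA libraries, 1 library per group. The authors trimmed reads with cutadapt, aligned them with BWA 0.5.5 to hg19 (NCBI Build 37) and RefSeq, and deposited RPKM values per RefSeq row: reads divided by row length and library total. The annotation release and the treatment of shared reads are not given in the sources used here.

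Whole reads were recovered from the deposited RPKM, since all low values checked (100%) were whole multiples of what 1 read is worth, within 0.1 read. Each symbol was represented by its row of highest mean RPKM. Differences were taken on log2(RPKM + 1), the first library minus the second, with exact (Clopper-Pearson) 95% intervals of the read share moved to that scale, and RPKM intervals were exact Poisson intervals. Both cover counting error only. Genes needed at least 1 RPKM and at least 10 reads in 1 of the compared libraries. No count model was run, since 1 library per group leaves no spread to estimate. The calculations were tested on simulated data.

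Groups came from the sample labels. Members and gene lists were chosen with earlier results of these data known. Named were all members, DDX3X, the MAX and MLX network genes, the 2 highest and 2 lowest of the MYC cofactor, MYC target and p53 target lists with each construct against GFP and with DDX3X siRNA, neighbours within 2 Mb with at least 10 reads, and the nearest 5 genes to PVT1 and 3 to MYC. GADD45A, FBXW7, KIAA1524, RUVBL2 and SKP2 values outside that rule, SNAP25 and TERT between the controls were chosen after their values were seen. Alternatives were other pseudocounts (0.1 and 10), median-ratio scaling, CPM, summed rows, thinning, other filters, a 1.5-fold threshold and, chosen after seeing the data, totals without DDX3X reads. Gene positions are those of GENCODE v44 on GRCh37. Python 3.11.15, numpy 2.4.6, pandas 2.3.3, scipy 1.17.1 and matplotlib 3.10.9 were used.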

Additional observations from a re-analysis of the deposited data

How the results depend on the processing

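Each group is 1 library, so leaving a library out would leave a group without data, and the spread between cultures is unknown. No paired analysis was possible because each group holds a single library. Of 50 values of PVT1 and MYC in the comparisons of constructs and DDX3X siRNA with their controls under the alternatives, 42 stayed within the counting interval, 8 moved beyond it and 0 changed sign. PVT1 moved with the pseudocount, to 1.08 (wild-type DDX3X) and 1.52 (T275M) at 0.1 and to 0.43, 0.65 and 0.24 (wild-type DDX3X, T275M and G302V) at 10. MYC moved under median-ratio scaling, to −0.25, −0.28 and −0.078 (wild-type DDX3X, T275M and DDX3X siRNA), a scaling that shifted all genes by −0.06 to 0.05. Of 48 member intervals, 7 changed under it in whether they left out 0, namely 2 of MYC between constructs, 2 of MAX, 2 of MNT and 1 of MXD4.

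Of 270 member values, 4 changed sign, all of MAX or MNT and near 0, and 10 crossed 2-fold. PVT1 with wild-type DDX3X passed 2-fold by CPM (1.02) and at pseudocount 0.1. MIR1204 fell below 2-fold by CPM (0.61 with wild-type DDX3X, 0.77 with T275M) and at pseudocount 10 (0.78 and 0.98). The constant added before the log draws differences of low values towards 0. With GFP, wild-type DDX3X and T275M it was 1 beside 0.201, 0.829 and 1.05 CPM. In the other setting it was 10 beside 2.99, 12.4 and 15.7 RPKM. Against T275M, MIR1204 with G302V was at −0.56 by CPM and −0.70 at pseudocount 10, and against wild-type DDX3X at −1.08 at pseudocount 0.1. Of 196 list medians none moved, and 3 changed sign, all in comparisons of G302V with another construct. Leaving DDX3X reads out of the totals, chosen after seeing the data, changed no sign and crossed no threshold.

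The number of genes called depended on the setting. In the order wild-type DDX3X, T275M, G302V, DDX3X siRNA and GFP against control siRNA it was 32, 48, 39, 14 and 64. It became 136, 149, 100, 69 and 120 at pseudocount 0.1, 3, 2, 3, 2 and 21 at pseudocount 10, and 286, 341, 226, 254 and 296 at 1.5-fold. A minimum of 10 RPKM left 8, 13, 21 and 5 in the first 4 of these, and rows of at least 200 bases left 11 with G302V, 9 with DDX3X siRNA and 10 between the controls. CPM gave 73 and 79 with wild-type DDX3X and T275M and 41 between the controls, and summed rows gave 61 with wild-type DDX3X. The depth limits MIR1204 most, with 7 to 52 reads.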
